A study of Rattus norvegicus with 53 samples.

Results

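The genes described here, 10 in number, carry or limit signals of the interleukin-1 and Toll-like receptors, or make and neutralise the inflammasome cytokine interleukin-18. They were followed through peripheral blood mononuclear cells (PBMCs) exposed to rat serum. The members were fixed by name, not by their values: the receptor adaptors and kinases Myd88, Irak1, Irak2, Irak3 and Traf6, the inhibitory receptor Sigirr, the inflammasome genes Casp1 and Pycard, and Il18 with its binding protein Il18bp. The array annotation held all 10, among 14217 genes with a symbol of their own, through 14 probe sets: 4 for Traf6, 2 for Irak1 and 1 for each other gene. Where a gene had several, the brightest on average over the 53 arrays stands for it, and the other probe sets of Traf6 and Irak1 are given beside it.

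In every culture the responding cells came from healthy Brown Norway (BN) rats aged 180 days and were kept for 6 h with plasma or serum, words that the labels use for the same samples. What varied was the source of that serum. In all, 10 cultures received autologous BN plasma, given as 20% of the culture, and 15 received allogeneic BN plasma; the labels give 180 days as the age of the serum in both. Another 4 received serum of DRlyp/lyp rats aged 60 days, the BioBreeding (BB) line that is lymphopenic and develops autoimmune diabetes, and 4 received serum of DR+/+ rats of that age, which do not. In 4 more, the day 60 DRlyp/lyp serum was supplemented with interleukin-1 receptor antagonist (IL-1RA), and in 4 autologous serum was supplemented with IL-1B. The last 12 cultures received serum of DRlyp/lyp rats aged 40 days that had been injected from day 30, for 10 days, with human IL-1RA (anakinra, 350 ug/kg per day) in 6 cases or with PBS in the other 6. For these the labels conflict, because 1 field speaks of serum to which hIL-1RA was added; the series text and the protocol, followed here, speak of treated rats. Day 60 BB sera and BN sera thus differ in donor age as well as in strain, and the 2 cannot be told apart. No serum group is a measurement of BB cells, since only BN cells were arrayed. The labels do not say whether replicates were separate animals, so p-values measure the spread between these cultures, which may be technical.

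Receptors of the interleukin-1 and interleukin-18 families and most Toll-like receptors recruit MyD88, which gathers IRAK kinases; these hand the signal to the ubiquitin ligase TRAF6 and so to NF-kappaB and MAP kinases. IRAK3, also called IRAK-M, and SIGIRR act against this path. Pycard encodes ASC, the adaptor that joins inflammasome sensors to caspase-1, the product of Casp1, and caspase-1 cuts the precursors of IL-1B and IL-18 into their active forms. IL-18 drives interferon gamma production by T and NK cells, and Il18bp encodes a soluble protein that captures it. In blood, monocytes are the main source of inflammasome activity.

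The arrays fell into 2 sets in an earlier analysis of these values, and the labels name no run. Set 1 held autologous replicates 1 to 6, allogeneic replicates 1 to 3 and the day 40 groups (21 arrays); set 2 held the rest (32 arrays). Groups were compared within a set, so the age of the BB rats at day 40 or day 60 and the array set cannot be told apart. Within set 2, allogeneic replicates 4, 6, 9, 11 and 12 stood apart on the first principal component (scores of 55.3 to 70.6, against at most 30.8 elsewhere) and had a narrower spread of log2 values (SD 1.81 to 1.87, against 1.96 to 2.20). Each call against allogeneic serum is given with and without these 5 arrays. Replicate 4 of the DR+/+ group also stood apart, with a mean correlation of 0.937 with its set. Defining PBMC markers were present, at mean log2 levels of 9.56 for Cd3e, 9.88 for Ms4a1 and 11.6 for Lyz2, and so were those of platelets (Pf4, 13.5) and red cells (Hbb, 14.1). Levels differed widely within a list. The 9 monocyte genes ran from 3.44 (Cd163) to Lyz2 and the 8 T-cell genes from 5.54 (Cd4) to 11.4 (Lck). The values are log2 signals of mixed cells, in which fewer cells of a type and less RNA per cell cannot be told apart.

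**Figure D1:**
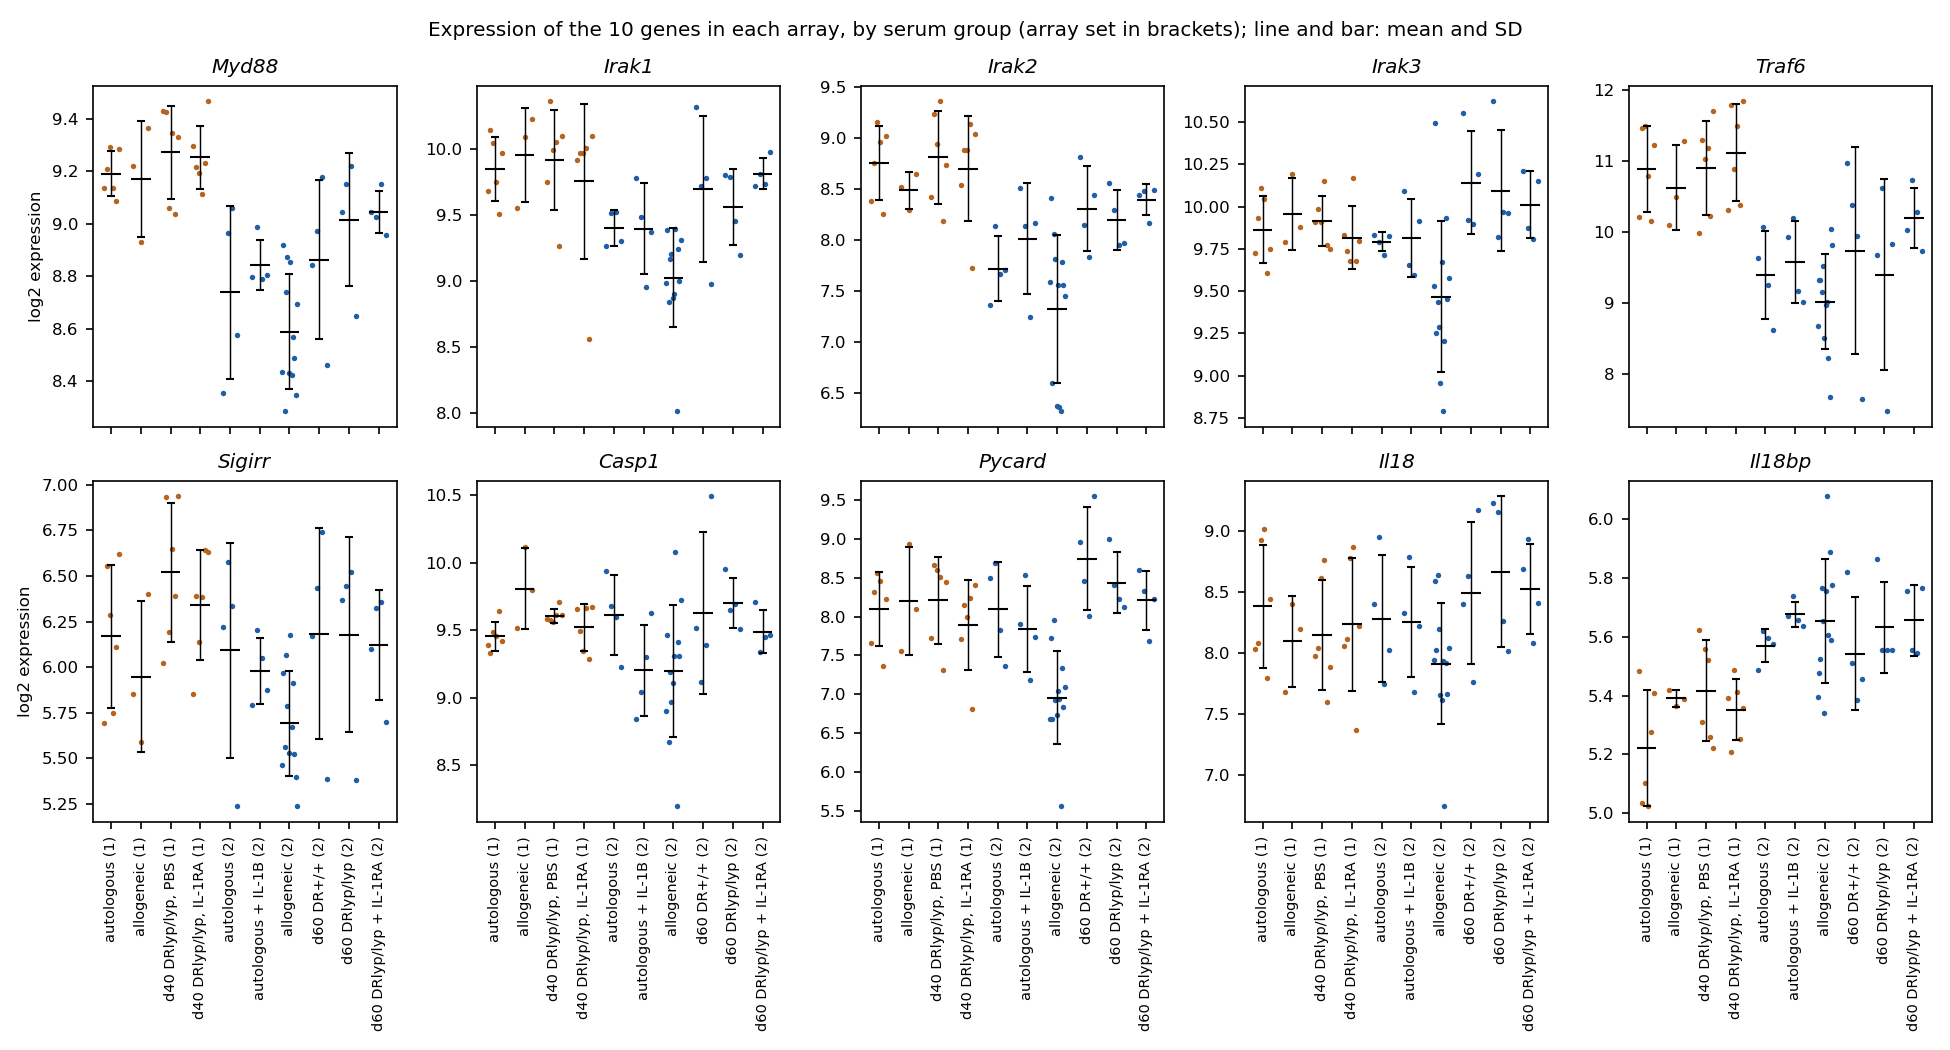
Log2 expression of the 10 genes in each of the 53 arrays, by serum group, with array set 1 in brown and set 2 in blue; lines and bars are group means and SD. Pycard in the 12 allogeneic arrays of set 2, at 5.56 to 7.95, lies below all 8 arrays with day 60 DRlyp/lyp or DR+/+ serum.

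Members passed the threshold only against allogeneic BN serum, and few of them did. Pycard, Irak2 and Irak3 were higher with serum of DRlyp/lyp rats, and the same 3 and Irak1 were higher with serum of DR+/+ rats. That was 3 and 4 of 14 probe sets at a limma adjusted p under 0.05, where 16% of all probe sets passed in the first comparison (9.69% as higher) and 19.6% in the second (11% as higher). That made 21.4% and 28.6% of the members' probe sets, all higher. The members' probe sets lay at percentiles 50.9 to 96.4 of mean level. Among probe sets above the median level 26.7% and 28.5% passed, 6 and 4 of them members'. Whether the members' shares exceed those of the array was not tested. Without the 5 allogeneic arrays that stood apart the counts were 0 and 1, beside 0.467% and 2.43% of all probe sets. The 1 was Pycard with DR+/+ serum. The calls of Irak1, Irak2 and Irak3 were also lost after a second quantile normalization, which gives all arrays one distribution, and when only the 2 groups compared were fitted, while those of Pycard were kept. The median difference over the 10 genes was 0.52 with DRlyp/lyp and 0.63 with DR+/+ serum, against -0.05 over all probe sets in both. Against autologous BN serum none of the 14 probe sets passed, with either serum. Both comparisons with allogeneic serum share its 12 arrays, and between the BB sera no member passed (0.00322% of probe sets did).

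Pycard, the ASC adaptor, gave the widest separation. Its values with DRlyp/lyp serum were 9.0, 8.40, 8.22 and 8.13, and with DR+/+ serum they were 8.96, 8.46, 8.01 and 9.54. The 12 allogeneic arrays ran from 5.56 through a median of 6.93 to 7.95. No array of either BB serum fell as low as the highest allogeneic one; of all probe sets, 1.55% were free of overlap with DRlyp/lyp and 2.32% with DR+/+ serum. The difference was 1.48 with DRlyp/lyp serum (SE 0.301, 2.79-fold, adjusted p 0.00412) and 1.79 with DR+/+ serum (SE 0.301, 3.45-fold, adjusted p 0.000446). Without the 5 allogeneic arrays that stood apart, it was 1.17 with DRlyp/lyp serum (adjusted p 0.0630, with 0.467% of all probe sets passing) and 1.47 with DR+/+ serum (adjusted p 0.0106, with 2.43% passing). The DRlyp/lyp call was also lost without replicate 1 of that group (adjusted p 0.0504).

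In array set 2 the mean of Pycard rose in the order allogeneic (6.96 ± 0.60, n = 12), autologous with IL-1B (7.84 ± 0.55, n = 4), autologous (8.09 ± 0.61, n = 4), DRlyp/lyp with IL-1RA (8.21 ± 0.38, n = 4), DRlyp/lyp (8.44 ± 0.39, n = 4) and DR+/+ (8.74 ± 0.66, n = 4), with SD throughout. Only the first step was wider than the SDs of the groups on either side, and even there the arrays overlapped. Allogeneic serum of set 2 lay 1.13 below autologous serum (95% interval -1.74 to -0.52), with an adjusted p of 0.156 where 0.00644% of probe sets passed. Leaving out autologous replicate 10, the lowest of its group at 7.36, gave -1.38 with an adjusted p of 0.0496. In array set 1 allogeneic and autologous cultures were at 8.20 ± 0.69 (n = 3) and 8.10 ± 0.47 (n = 6), a difference of 0.10 (-0.64 to 0.84). Over the 3 same-numbered pairs, in the paired fit, it was 0.02 (-0.53 to 0.56). The 3 allogeneic arrays of set 1 varied widely in the actin 3′ minus 5′ value, the log2 signal of the 3′ probe set of actin less that of the 5′ one, a sign of RNA quality: 2.39 ± 1.47, against 3.91 ± 0.39 in the autologous arrays (SD). With that value as a covariate the difference in set 1 was -0.23 (SE 0.473), so its direction was not determined. Without the covariate, the allogeneic effects of the 2 sets differed by -1.23 (-2.21 to -0.25, adjusted p 0.257), where 0.696% of probe sets passed. The part of RNA quality in this was not tested.

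The window around the start of Pycard is shown because this gene separated the sera, and those of Irak3 and Irak1 because these kinases were called beside it. They are RefSeq sequences of build GRCr8, 300 bases each, from 250 before the gene's start to 50 after it, all read on the minus strand: chr1:192033370-192033669 for Pycard, chr7:57598582-57598881 for Irak3 and chrX:156929776-156930075 for Irak1. Capitals mark a match to the NF-kappaB motif.
Pycard: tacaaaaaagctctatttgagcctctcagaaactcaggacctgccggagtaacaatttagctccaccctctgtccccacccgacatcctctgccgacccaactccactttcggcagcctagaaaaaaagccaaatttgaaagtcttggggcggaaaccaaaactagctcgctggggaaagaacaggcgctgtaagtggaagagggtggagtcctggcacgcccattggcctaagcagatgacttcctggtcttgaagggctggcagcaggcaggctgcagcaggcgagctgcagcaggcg
Irak3: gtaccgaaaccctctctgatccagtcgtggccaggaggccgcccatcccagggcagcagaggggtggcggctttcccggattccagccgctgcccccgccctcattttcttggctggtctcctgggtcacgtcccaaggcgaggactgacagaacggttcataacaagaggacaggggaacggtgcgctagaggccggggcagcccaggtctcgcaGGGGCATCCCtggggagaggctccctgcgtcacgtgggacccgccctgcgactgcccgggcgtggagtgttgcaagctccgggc
Irak1: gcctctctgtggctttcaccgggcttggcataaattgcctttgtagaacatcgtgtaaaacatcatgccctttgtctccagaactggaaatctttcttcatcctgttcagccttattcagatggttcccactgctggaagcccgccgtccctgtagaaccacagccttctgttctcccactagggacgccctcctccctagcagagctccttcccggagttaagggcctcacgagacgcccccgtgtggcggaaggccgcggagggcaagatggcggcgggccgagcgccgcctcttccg
Of the 10 members, 8 had such a window in the table; Irak2 and Traf6 were not matched. The NF-kappaB consensus was found in 1 of the 8, Irak3, as GGGGCATCCC beginning 34 bases before the start, a stretch that matches on both strands. It was found in 7.51% of 33469 rat windows of that length. The interferon-response motif, GAAA, any 2 bases and GAAA again, searched on both strands, was found in 3 of the 8: as GAAAGCGAAA in Myd88, 16 bases before the start, as GAAAGTGAAA in Il18bp, 40 bases after it, and, on the strand opposite to the gene, in Casp1, 28 bases before it, where the gene's own strand reads TTTCAGTTTC. Of all windows, 3.92% held it. No match of one motif overlapped a match of the other. These are matches of letters only, and none was tied to the values.

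Casp1, the protease that ASC activates, did not pass the threshold in any comparison. Its group means in set 2 ran from 9.20 with autologous serum plus IL-1B and with allogeneic serum to 9.70 with DRlyp/lyp serum. The values with IL-1B were 8.84, 9.04, 9.30 and 9.63, and those of plain autologous serum were 9.94, 9.68, 9.60 and 9.23. The arrays of these groups overlapped, and the difference was -0.41 (-0.99 to 0.18). Against allogeneic serum Casp1 was at 0.51 (0.03 to 0.98, adjusted p 0.124) with DRlyp/lyp serum. In set 1, where the 3 allogeneic arrays read 9.51, 10.11 and 9.80 and the autologous mean was 9.45 ± 0.11 (SD, n = 6), the difference was 0.35 (0.08 to 0.63, adjusted p 0.223, with 0.029% of probe sets passing). It became 0.50 with an adjusted p of 0.0494 without allogeneic replicate 1, and 0.03 with the actin covariate. Over the 3 same-numbered pairs it was 0.41 (-0.003 to 0.81, paired adjusted p 0.616).

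Irak2, a kinase that prolongs TRAF6 signalling, was second to Pycard in size of difference. With DRlyp/lyp serum it read 8.56, 8.29, 7.95 and 7.97, and with DR+/+ serum 8.81, 8.14, 7.83 and 8.44. The allogeneic arrays of set 2 ran from 6.32 through 7.56 to 8.41. The highest allogeneic arrays thus overlapped the BB sera. The differences were 0.87 with DRlyp/lyp (SE 0.293, adjusted p 0.0409) and 0.98 with DR+/+ serum (SE 0.293, adjusted p 0.0207). Of the 5 allogeneic arrays that stood apart, replicates 12, 11, 9 and 6 were the lowest 4 of the group, between 6.32 and 6.60. Without the 5, the differences were 0.39 (adjusted p 0.352) and 0.50 (adjusted p 0.204), and neither passed. The DRlyp/lyp call was lost in 7 of 16 fits with 1 array left out, at most to an adjusted p of 0.172 without DRlyp/lyp replicate 1, and the DR+/+ call in 1, without DR+/+ replicate 1 (adjusted p 0.109).

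Irak3, the inhibitory member of the kinase family, was also higher with both BB sera. It read 10.62, 9.82, 9.97 and 9.96 with DRlyp/lyp serum and 10.55, 9.92, 9.90 and 10.19 with DR+/+ serum, against 8.79 to 10.50 (median 9.44) with allogeneic serum. Replicate 1 was the highest array of each BB group. The differences were 0.63 (SE 0.205, adjusted p 0.0361) and 0.68 (SE 0.205, adjusted p 0.0226). They came to 0.40 (adjusted p 0.287) and 0.45 (adjusted p 0.204) without the 5 arrays. After the second quantile normalization they were 0.26 and 0.29. With 1 array left out the DRlyp/lyp call was lost in 7 of 16 fits (adjusted p up to 0.215, without DRlyp/lyp replicate 1) and the DR+/+ call without DR+/+ replicate 1 (adjusted p 0.125). In the autologous group of set 2 Irak3 varied little, from 9.71 to 9.83.

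Irak1, the kinase that binds MyD88 complexes and TRAF6, passed with DR+/+ serum and was close to the threshold with DRlyp/lyp serum. It read 10.32, 9.72, 9.78 and 8.98 with DR+/+ serum, against 8.02 to 9.39 (median 9.09) with allogeneic serum. Replicate 4, the array that stood apart, was the only one within the allogeneic range. The difference was 0.67 (SE 0.204, adjusted p 0.0226), and 0.53 (adjusted p 0.127) without the 5 allogeneic arrays. It was 0.29 (adjusted p 0.296) after the second quantile normalization and 0.97 (adjusted p 0.00202) with the actin covariate. With 1 array left out the call was lost in 2 of 16 fits, up to an adjusted p of 0.163 without DR+/+ replicate 1. With DRlyp/lyp serum it was 0.54 (SE 0.204, adjusted p 0.0658). It passed there without replicate 4 (0.66, adjusted p 0.0361), after centring on array medians (0.62, adjusted p 0.0412), among probe sets above the median level (adjusted p 0.0488) and with the actin covariate (0.78, adjusted p 0.00479). With that serum Irak1 did not pass without the 5 allogeneic arrays, after the second quantile normalization or with only the 2 groups compared. The 2 BB sera differed by -0.14 (-0.65 to 0.37). The weaker second probe set of Irak1, 1394991_at, followed the first poorly (r = 0.20 over the 21 arrays of set 1 and 0.25 over the 32 of set 2). In set 2 it averaged 5.70 with DRlyp/lyp, 5.77 with DR+/+ and 5.74 with allogeneic serum. Its DRlyp/lyp difference from allogeneic serum was -0.04 (adjusted p 0.858).

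Myd88, the adaptor at the head of the path, kept within a narrow range in each set. Its group means ran from 9.17 to 9.27 in set 1 and from 8.59 with allogeneic to 9.04 with IL-1RA-supplemented DRlyp/lyp serum in set 2. With DRlyp/lyp serum it read 9.04, 9.15, 9.22 and 8.65, which overlapped the 8.29 to 8.92 of allogeneic serum only through replicate 4. The difference was 0.43 (SE 0.153, adjusted p 0.0511), just short of the threshold, and it was 0.55 with an adjusted p of 0.0196 without that replicate. It also passed without allogeneic replicate 5, 7, 8 or 10 (0.44 to 0.46, adjusted p 0.0339 to 0.0459). Other fits in which it passed were 1 model of all arrays (adjusted p 0.0187) and variances without a trend (adjusted p 0.0302). So were centring on array medians (adjusted p 0.0361), probe sets above the median level (adjusted p 0.0335) and the actin covariate (adjusted p 0.0222). It did not pass after the second quantile normalization or with only the 2 groups compared. Without the 5 allogeneic arrays that stood apart, Myd88 did not pass with DRlyp/lyp serum. With DR+/+ serum its difference over all arrays was 0.27 (-0.04 to 0.59).

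Sigirr, the inhibitory receptor, did not pass in any comparison, and 1 replicate shaped its spread. Replicate 4 was the lowest array in 3 of the groups of set 2, at 5.38 with DRlyp/lyp, 5.70 with DRlyp/lyp plus IL-1RA and 5.39 with DR+/+ serum, where the other arrays lay at 6.10 or above. Without replicate 4 of the DRlyp/lyp group its difference from allogeneic serum was 0.75 (adjusted p 0.0190), and without replicate 4 of the DR+/+ group it was 0.76 (adjusted p 0.0152). With all arrays both were at 0.49 (adjusted p 0.113 and 0.101). With the actin covariate they were 0.60 (adjusted p 0.0545) and 0.63 (adjusted p 0.0494), so only the DR+/+ difference passed. Without the 5 allogeneic arrays that stood apart they were 0.44 and 0.45, and neither passed.

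**Figure D2:**
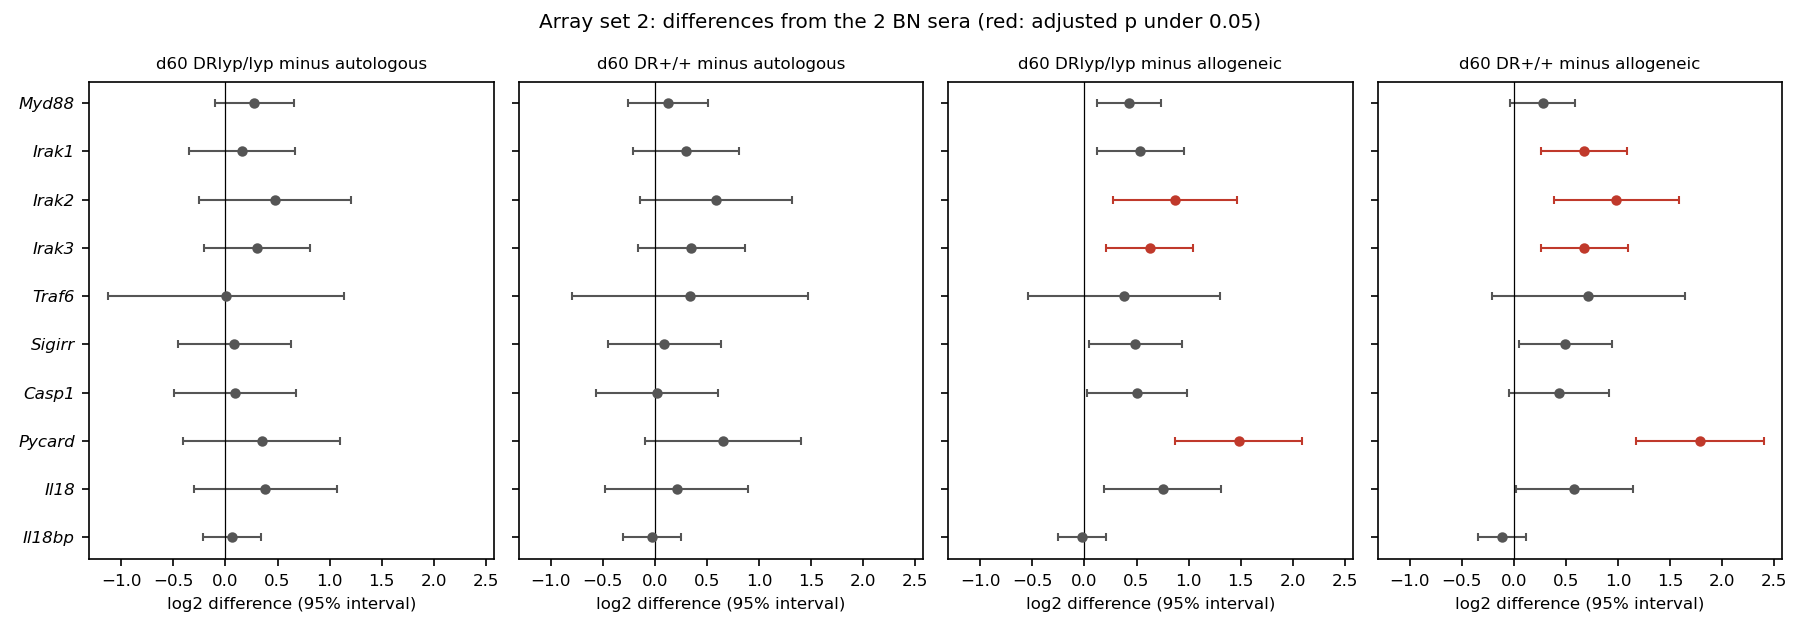
Log2 differences of the 10 genes in array set 2 between each day 60 BB serum and autologous or allogeneic BN serum, with 95% intervals; red points passed a limma adjusted p of 0.05. Against autologous serum every interval includes 0, while Pycard lies at 1.48 and 1.79 above allogeneic serum.

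Traf6 was measured by 4 probe sets that did not move together. Its highest, 1393809_at, varied widely between replicates of 1 group, reading 9.67, 10.62, 7.47 and 9.82 with DRlyp/lyp serum and 10.98, 10.37, 9.94 and 7.63 with DR+/+ serum. Against allogeneic serum it was at 0.38 (-0.54 to 1.30) and 0.71 (-0.21 to 1.64), and neither passed. Without replicate 4 of the DR+/+ group the second was 1.41 (adjusted p 0.0180), and with the actin value as a covariate the differences were 1.05 (adjusted p 0.0422) and 1.53 (adjusted p 0.00810). None of the other Traf6 probe sets passed with that covariate. With DRlyp/lyp and DR+/+ serum, 1392660_at was then at 0.14 and 0.57, 1383778_at at 0.06 and 0.18, and 1384582_at at -0.21 and 0.06. Across arrays 1393809_at was near 0 in its correlation with 1392660_at (r = -0.04 in set 1 and 0.17 in set 2), whereas 1392660_at and 1383778_at followed each other (0.69 and 0.76). In set 1, 1384582_at averaged 6.43 ± 1.01 (SD, n = 3) with allogeneic and 7.64 ± 0.33 (SD, n = 6) with autologous serum. It was lower in 3 of 3 same-numbered pairs (-0.95, -1.66 to -0.24, paired adjusted p 0.584). With the actin covariate, unpaired, this difference was -0.45 (SE 0.416).

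In day 40 serum, 3 Traf6 probe sets were at higher values in every same-numbered pair with serum of rats given IL-1RA than of rats given PBS, without passing the threshold. The 6 IL-1RA arrays of 1392660_at ran from 10.50 through 10.60 to 10.69 and the 6 PBS arrays from 9.81 through 10.15 to 10.39, with no overlap, as in 0.122% of all probe sets; 0 of 31042 probe sets passed in this comparison. The difference was 0.48 (adjusted p 0.514), or 0.48 with an adjusted p of 0.175 when same-numbered cultures were paired. It was positive in 6 of 6 pairs, as were those of 1383778_at (0.32, paired adjusted p 0.213) and 1384582_at (0.71, paired adjusted p 0.0943). These 3 of 14 member probe sets made 21.4%, where 2.43% of all probe sets were positive in every pair. All 3 belong to 1 gene, Traf6, so they are not independent members. The main Traf6 probe set, 1393809_at, was at 0.21 and higher in 5 of 6 pairs (paired adjusted p 0.406). With Pycard, lower in every pair, the 3 made 28.6%, beside 5.45% with one sign in every pair. The pairing brought 3 probe sets of the whole array past the threshold, 0.00966%, and no member was among them. Pycard had the opposite sign in 6 of 6 pairs (-0.32, paired adjusted p 0.300). The actin 3′ minus 5′ values of these groups averaged 3.90 with IL-1RA and 3.52 with PBS; with that measure as a covariate 1392660_at kept a difference of 0.48 (adjusted p 0.847), 1383778_at was at 0.34 and 1384582_at at 0.52.

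**Figure D3:**
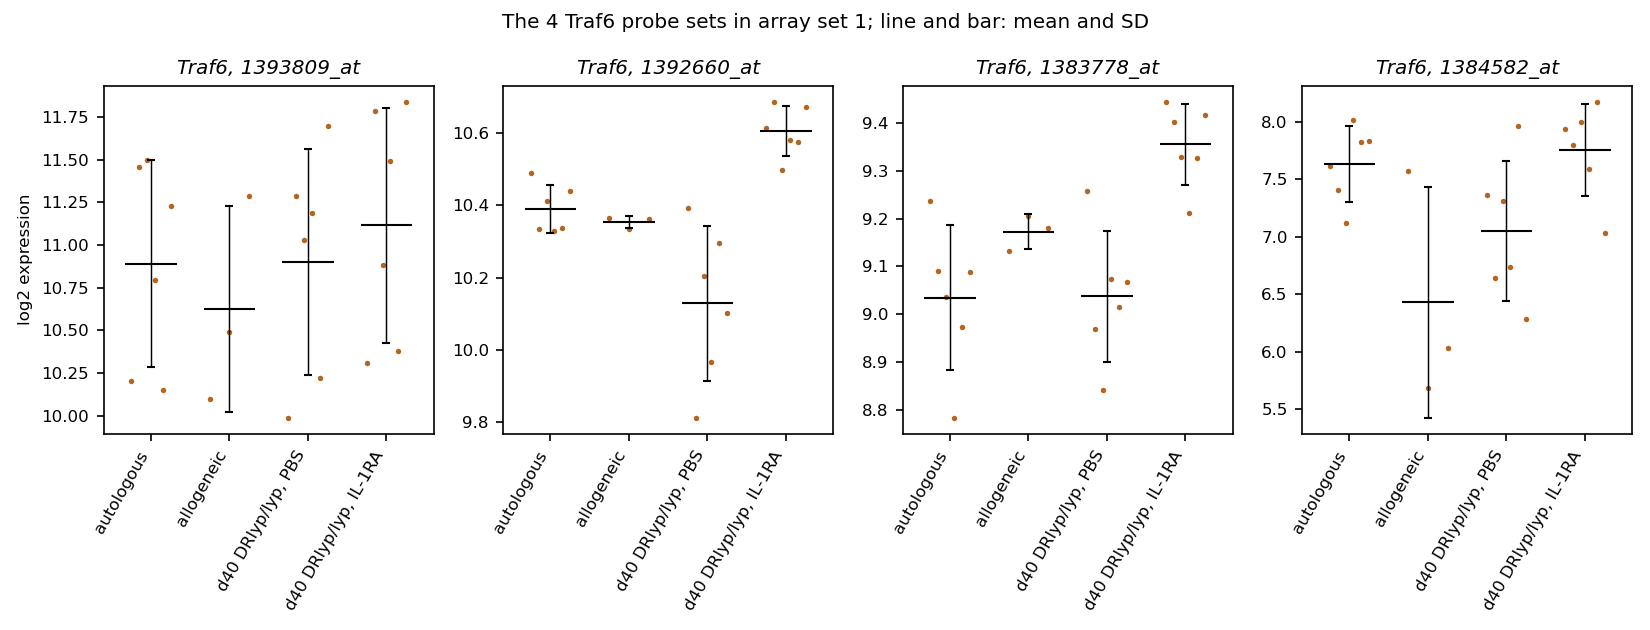
Log2 expression of the 4 Traf6 probe sets in the 21 arrays of set 1, by serum group, with means and SD. The IL-1RA and PBS arrays of day 40 do not overlap in 1392660_at, at 10.50 to 10.69 and 9.81 to 10.39, while those of 1393809_at do.

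Il18, the cytokine precursor, passed in no comparison. Its means in set 2 ran from 7.91 ± 0.49 (SD, n = 12) with allogeneic through 8.28 ± 0.52 (SD, n = 4) with autologous to 8.67 ± 0.62 (SD, n = 4) with DRlyp/lyp serum. The DRlyp/lyp arrays read 9.23, 9.15, 8.26 and 8.02, so 2 of the 4 lay within the allogeneic range of 6.75 to 8.64. The difference from allogeneic serum was 0.75 (0.19 to 1.31, adjusted p 0.0572). It passed without DRlyp/lyp replicate 4 (0.97, adjusted p 0.0230) and without allogeneic replicate 5 or 7 (0.81 and 0.82, adjusted p 0.0370 and 0.0353). It also passed in 1 model of all arrays (adjusted p 0.0451), after centring on array medians (adjusted p 0.0359) and among probe sets above the median level (adjusted p 0.0446). It did not pass without the 5 allogeneic arrays that stood apart or after the second quantile normalization. Nor did it with only the 2 groups compared, with variances without a trend or with the actin covariate. Il18bp, the decoy for IL-18, had group means of 5.22 to 5.42 in set 1 and 5.54 to 5.68 in set 2. Its difference between DRlyp/lyp and allogeneic serum was -0.02 (-0.25 to 0.21). In replicates 2, 3 and 4 of the DRlyp/lyp group it was listed at the same value of 5.56, near the middle of all probe sets.

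Neither adding the cytokine nor blocking its receptor moved a member past the threshold. IL-1B added to autologous serum gave 0.11 for Myd88 (-0.27 to 0.49), 0.29 for Irak2 (-0.44 to 1.02), 0.02 for Irak3 (-0.49 to 0.54) and -0.25 for Pycard (SE 0.368). Of the 3 genes called with DRlyp/lyp against allogeneic serum, only Irak2 had an interval that includes its difference there, 0.87. The upper limits of Irak3 and Pycard, 0.54 and 0.50, lay below their differences, 0.63 and 1.48. The references also differ, being autologous serum for IL-1B and allogeneic serum for DRlyp/lyp serum. The part of IL-1B in the serum differences was not tested. IL-1RA added to day 60 DRlyp/lyp serum, with same-numbered cultures paired, gave -0.23 for Pycard (-0.54 to 0.09), 0.20 for Irak2 (-0.10 to 0.50) and -0.14 for Il18 (-0.48 to 0.21); without the pairing the values were the same and their intervals wider, as for Pycard (-0.98 to 0.52). Casp1 was lower in 4 of 4 pairs (-0.21, paired adjusted p 0.495). Traf6 was at 0.44 in 1392660_at (paired adjusted p 0.284) and 0.55 in 1384582_at (paired adjusted p 0.342), both higher in 4 of 4 pairs and without overlap between the groups. The arrays of 1392660_at read 9.48, 9.33, 9.72 and 9.55 with IL-1RA and 9.22, 9.08, 9.31 and 8.71 without. Its brightest probe set, 1393809_at, was at 0.80 and higher in 3 of 4 pairs. Of the 14 member probe sets 2, both of Traf6, were free of overlap (14.3%, beside 2.75% of all). In every pair 4 had one sign (28.6%, beside 19.1%), 3 of them a positive one (21.4%, beside 7.82%). Those 3 were the same 2 of Traf6 and Irak1 1394991_at. The paired fit called 0 probe sets. Without pairing, limma called in both comparisons 0 of the 31042 probe sets, with 855 and 808 at an unadjusted p under 0.05. None of those was a member's main probe set. Against autologous serum, 0 members passed with day 60 DRlyp/lyp (0.00644% of probe sets passed), DR+/+ (0.271%), IL-1RA-supplemented DRlyp/lyp (0.0354%), day 40 PBS (0%) or day 40 IL-1RA serum (0%). With same-numbered cultures paired, no member passed between day 40 IL-1RA and autologous serum either, where 0.0129% of probe sets did. With day 60 DRlyp/lyp serum all 10 genes had a positive difference from autologous serum, with a median of 0.22 and no adjusted p below 0.930. For the step from day 40 to day 60, the effect of DRlyp/lyp serum on Il18 differed by 0.62 (SE 0.438, adjusted p 0.948), and 0 of 31042 probe sets passed.

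Replicates that carried the same number in the labels resembled each other, although the labels do not say what a number stands for. Over the 18 arrays of set 1 with numbers 1 to 6 in all 3 groups, the number took 91.5% of the sum of squares of Il18 and the serum group 4.29%. For Pycard it took 86.7% against 6.85%, for Irak2 84.5% against 1.20% and for Irak1 76.7% against 2.89%. The median over the 10 genes was 71.7%, beside 48.9% over all probe sets and 29.4% of the degrees of freedom. The group held 11.8% of the degrees of freedom. Casp1 had more with the group (25.0%) than with the number (12.6%), as did the Traf6 probe set 1392660_at (71.1% and 10.4%). The same held for Traf6 1383778_at (62.5% and 24.3%) and 1384582_at (34.7% and 31.0%). It did not hold for the brightest, 1393809_at (2.92% and 86.8%). Il18 was lowest in number 5, at 7.79, 7.60 and 7.37 with autologous, PBS and IL-1RA serum, and highest in number 4, at 9.02, 8.76 and 8.87. Number 5 was also lowest for Pycard, with a mean of 7.16 beside 7.70 to 8.40 in the others. In set 2, over 16 arrays of 4 groups with 4 numbers, the number took 72.6% of the spread of Sigirr, 68.8% of that of Irak3 and 61.0% of that of Irak2, with a median of 48.7% over the 10 genes and 36.2% over all probe sets. Pycard and Casp1 had more with the group there (35.8% and 26.6%) than with the number (33.2% and 22.4%).

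**Figure D4:**
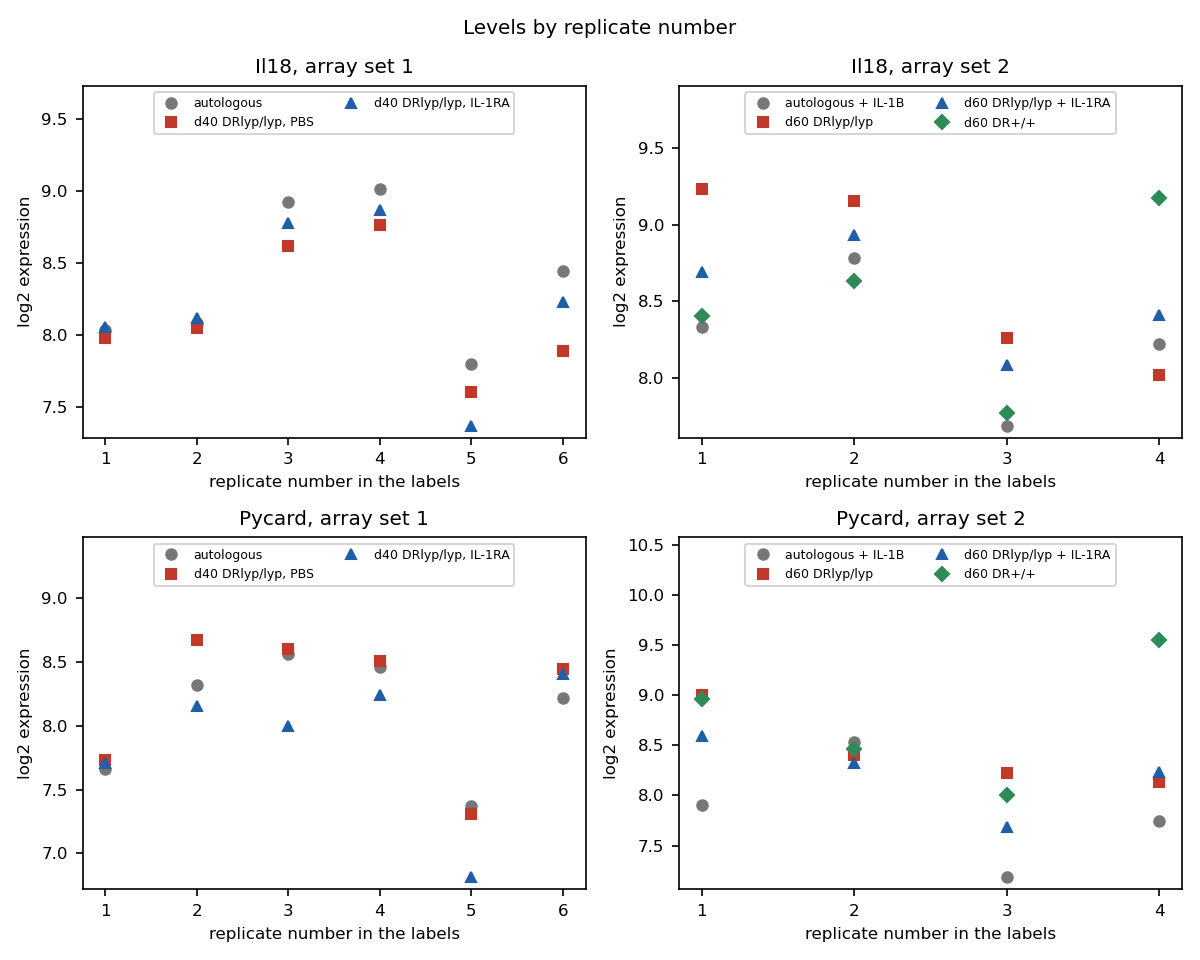
Log2 expression of Il18 and Pycard by replicate number, with a symbol for each serum group, in array sets 1 and 2. In set 1 the symbols of one number lie close together, and number 5 is lowest for both genes (means 7.59 and 7.16).

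**Figure D5:**
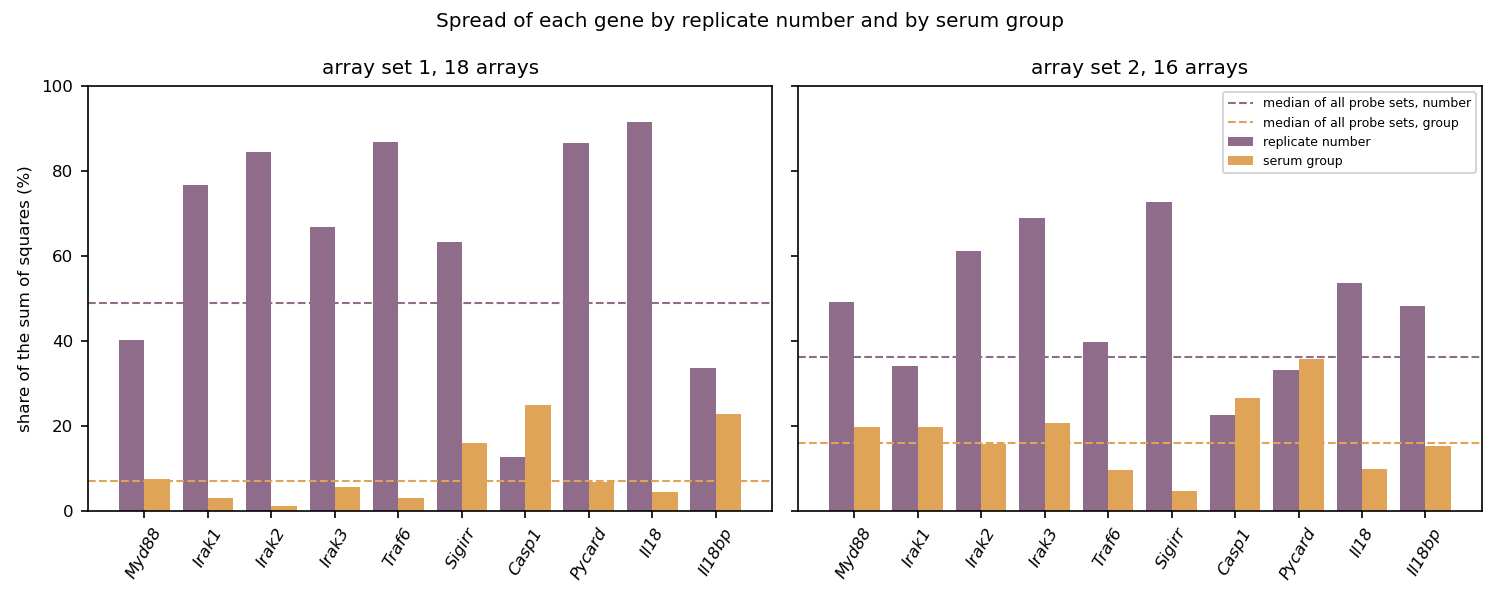
Share of each gene's sum of squares that followed the replicate number (purple) or the serum group (orange) in 18 arrays of set 1 and 16 arrays of set 2; dashed lines are medians over all probe sets. In set 1 the number outweighs the group for 9 of the 10 genes, each shown by its brightest probe set, and in set 2 for 8.

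Some members followed each other across arrays. As a description, over arrays that share serum groups and replicate numbers, Pycard correlated with Irak1 at 0.85 over the 21 arrays of set 1 and 0.70 over the 32 of set 2, with Irak2 at 0.75 and 0.79, and with Il18 at 0.70 and 0.84. Irak2 and Il18 stood at 0.75 and 0.72. These are among the highest pairs. Myd88 and Pycard stood at 0.08 and 0.47, Casp1 and Il18 at 0.04 and 0.52, and Sigirr and Il18 at -0.15 and 0.30. The first principal component over all probe sets took 33.3% of the spread in set 1 and 32.4% in set 2. Its part in these correlations was not tested. Il18bp followed none of Irak2, Pycard and Il18 (between -0.09 and 0.07). Over all single-gene probe sets, ranked by the smaller of the r in the 2 sets, the gene most like Pycard was Cep295 (0.90), the one most like Irak2 was Arhgap17 (0.87) and the one most like Il18 was Nxpe1 (0.86). Sigirr was most like Tab1 (0.84), which encodes a partner of the kinase TAK1. Irak1 was most like Acsl5 (0.83), Irak3 most like Trim5 (0.83), Casp1 most like Zfp207 (0.79), Traf6 most like Akap13 (0.79) and Myd88 most like Mfsd5 (0.73).

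Among 75 measured of 111 listed genes of the same pathways, 18 were higher and 1 lower with DRlyp/lyp than with allogeneic serum, and 20 were higher and 4 lower with DR+/+ serum. Their medians were 0.35 and 0.27. Of all probe sets, 16% and 19.6% passed in these comparisons (9.69% and 11% as higher). Among probe sets above the median level the shares were 26.7% and 28.5%. Whether the listed genes exceeded these shares was not tested. Without the 5 allogeneic arrays, 2 were higher with DRlyp/lyp serum (Il1b and Cd14), 3 with DR+/+ serum (these and Ticam1, an adaptor of Toll-like receptors), and 0 were lower with either. Of all probe sets, 0.467% and 2.43% passed then. Of 10 Toll-like receptors and co-receptors, 4 were higher with each serum, led by Cd14, the lipopolysaccharide co-receptor (1.97 and 1.93, adjusted p 0.00219 and 0.000712). Of 18 genes between TAK1 and NF-kappaB, 6 were higher with DRlyp/lyp serum, led by Nfkbia, the NF-kappaB inhibitor (1.51), and 5 with DR+/+ serum, led by Tab2, a TAK1 partner (1.15). The transcription factor Irf1 was higher with both (1.49 and 1.17), as was the cytokine Il1b (1.20 and 1.11). Of 12 other inflammasome and pyroptosis genes, 3 and 5 were higher. The lower ones, named after their values were seen, were the IL-33 receptor Il1rl1 with both sera (-0.42 and -0.40) and Il1r1, Nlrp6 and Il12b with DR+/+ serum (-0.42, -0.38 and -0.29). Against autologous serum 1 listed gene passed, Traf3, a TRAF family adaptor, with DR+/+ serum (1.36, adjusted p 0.0427). The effect of allogeneic serum on Casp4, an inflammatory caspase, differed between the array sets by -1.11 (adjusted p 0.0335).

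Markers of several cell types, and the actin sign of RNA quality, differed in the same comparisons. Of 9 monocyte genes, 5 were higher with DRlyp/lyp and 5 with DR+/+ than with allogeneic serum, namely Cd14, Csf1r, Cd68, Lyz2 and Mpeg1 in each case, and 0 were lower. As higher, 9.69% and 11% of all probe sets passed. Cd163 was near the bottom of the scale (mean 3.44). The mean over the 9 genes was 6.94 to 7.10 in the DRlyp/lyp arrays, 6.90 to 7.26 in the DR+/+ arrays, 5.94 to 7.41 (median 6.25) in the allogeneic and 6.27 to 6.74 in the autologous arrays of set 2. Of 7 platelet genes, 1 was lower with DRlyp/lyp serum (Gp5) and 3 with DR+/+ serum (Gp5, Mmrn1 and Treml1). Of 5 neutrophil genes 0 and 2 were higher, S100a8 and Csf3r, with a median of 0.65 with DR+/+ serum. Among 8 T-cell genes Cd8a was higher with both sera (0.88 and 0.92) and Cd4 lower with DR+/+ serum (-0.36), and of 6 NK and cytotoxic genes Gzmb was lower with DR+/+ serum (-0.45). No B-cell or erythroid gene passed. Without the 5 arrays, Cd14 was the monocyte gene still higher with DRlyp/lyp serum, Cd14 and Mpeg1 were the 2 higher with DR+/+ serum, and Mmrn1 and Gzmb were lower with DR+/+ serum. The shares of all probe sets were then 0.467% and 2.43%. The actin 3′ minus 5′ value averaged 2.78 ± 0.39 (SD, n = 12) with allogeneic serum, 2.32 ± 0.15 (SD, n = 4) with DRlyp/lyp and 2.23 ± 0.75 (SD, n = 4) with DR+/+ serum. With it as a covariate, 6 member probe sets passed in each comparison, where 25.2% and 26.6% of all probe sets passed. Pycard was then at 1.49 and 1.79. The part of these cell markers in the differences of Pycard, Irak1, Irak2 and Irak3 was not tested.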

How the data were processed

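PBMC cultures were measured on Affymetrix rat expression arrays, 1 per culture (53 arrays), and the deposited table gives log2 values. RMA and Partek 6.2 appear in the submitters' processing notes, without a version for RMA or a role for Partek. RMA compresses differences near background. No depth exists for arrays, and their number limits precision. Controls (57) were left out and 31042 probe sets tested; 20826 had 1 symbol, 436 several and 9780 none. Groups came from the labels.

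Group means were fitted within each array set with limma 3.58.1 in R 4.3.3, with a trend of variance on mean level. The p-values were adjusted by Benjamini-Hochberg over 31042 probe sets within a comparison, and under 0.05 was called. Standard errors, 95% intervals and adjusted p-values are limma's. The 2 differences between sets came from 1 model of all arrays. The fit was tested on simulated data. Same-numbered cultures could be paired where every same-number correlation of deviations exceeded 0.1. These were day 40 IL-1RA with PBS (lowest 0.487) and with autologous (0.118). The others were allogeneic with autologous in set 1 (0.123) and DRlyp/lyp with and without IL-1RA (0.134). The main fits were unpaired in every comparison, and values from paired fits are named as such. No 2 arrays were duplicates (highest correlation 0.996). Alternatives were other scalings, filters, variance models, a replicate block, an actin covariate and leaving out arrays. The 10 genes were all named; listed pathway genes were named where called, at most 4 per comparison by size. Most-alike genes were named at r of at least 0.7 in both sets; the best for Il18bp was at 0.52. Members and lists were chosen with earlier results of these data known. Plots used matplotlib 3.10.9 under Python 3.11.15.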

Additional observations from a re-analysis of the deposited data

Results flagged for a closer look

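Single arrays lay far from the rest of their group in 7 of the 80 sets of values examined (10 genes in 8 groups of 4 or 6 arrays), where chance gives about 1 in 20. Myd88 in replicate 2 of autologous serum with IL-1B was at 8.9876, above 8.789 to 8.8045 in the others. Irak1 in replicate 5 of the day 40 IL-1RA group was at 8.5662, below 9.9197 to 10.1047. Irak2 in replicate 3 of day 60 DRlyp/lyp serum with IL-1RA was at 8.1636, below 8.4412 to 8.488. Irak3 in replicate 4 of the day 40 IL-1RA group was at 10.1713, above 9.6798 to 9.8304. Sigirr in replicate 4 of the day 60 DRlyp/lyp group was at 5.3811, below 6.3658 to 6.5235. Casp1 in replicate 5 of the day 40 PBS group was at 9.7074, above 9.5642 to 9.6149. Il18bp in replicate 1 of the day 60 DRlyp/lyp group was at 5.8642, where the other 3 were listed at 5.5554. The cause of none of these was tested.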

How the results depend on the processing

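With DRlyp/lyp against allogeneic serum, 3 member probe sets were called. That count was 5 in 1 model of all arrays (beside 21.5% of all probe sets) and 1 after a second quantile normalization (7.63%). It was 6 after centring on array medians (15.7%), 6 among probe sets above the median level (26.7% of those) and 6 with the actin covariate (25.2%). It was 1 with only the 2 groups compared (10.8%) and 0 without the 5 allogeneic arrays that stood apart (0.467%). That last alternative was chosen after seeing the data, as was its use for the listed pathway and marker genes. Leaving out 1 array gave 0 to 7: 0 without DRlyp/lyp replicate 1, 1 without replicates 2 or 3 or allogeneic replicates 6, 9, 11 or 12, 5 without allogeneic replicates 5 or 7, and 7 without DRlyp/lyp replicate 4. Over those fits 292 to 7368 of all probe sets passed. With DR+/+ against allogeneic serum the count of 4 became 1 after the second quantile normalization (beside 12.1% of all probe sets). It became 1 with only the 2 groups compared (9.01%) and 1 without the 5 arrays (2.43%). Leaving out 1 array gave 1 to 6 (1 without DR+/+ replicate 1, 6 without replicate 4), where 2176 to 8967 of all probe sets passed. The one left was Pycard, which kept its DR+/+ call under every alternative run. The range for allogeneic against autologous serum was 0 to 1 in set 2 (1 without autologous replicate 10) and 0 to 2 in set 1 (2 without allogeneic replicate 1). Of all probe sets, 0 to 134 passed over those fits in set 2 and 0 to 1168 in set 1. With the replicate block, 0 member probe sets were called in each of the 7 comparisons whose groups share numbers, as without it. No called value changed sign. Of 1156 values of single members under the other alternatives, 16 lost and 14 gained a call, and 27 uncalled ones changed sign; of 1410 with 1 array left out, 19 lost and 14 gained a call and 106 uncalled ones changed sign. The cause was not tested. Arrays were too few to separate differences of the size of the intervals given.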
